A study of Mus musculus with 19 samples.

Results

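The ovarian surface epithelium genes described here are 9 genes, Krt8, Krt18, Krt19, Krt7, Upk3b, Upk1b, Msln, Wt1 and Cdh1, of 18193 mouse genes with a probe set of their own on the array. A probe set is a group of short probes for a transcript. Only the 15 probe sets annotated to a single member were used, of 45101 on the array, and all 9 members lay above the intensity filter that left 12379 genes for testing. RNA of ovaries from female mice of 2 months was hybridized to 19 Affymetrix Mouse Genome 430 2.0 arrays, 1 per sample, in a study that compared the loss of Dhh, of Ihh or of both hedgehog ligand genes. The mutants were 3 ovaries lacking both Ihh and Dhh (Ihh_Dhh_dKO, dKO below), 4 lacking Dhh (Dhh_KO) and 4 lacking Ihh (Ihh_KO). The 8 controls were labelled Ihh_Dhh_dhet and are heterozygous for both genes, so they are not wild type. The labels describe the deletions as specific to the ovary. No source used here gives the Cre line or promoter, the strain or any pooling of animals, nor do the labels say whether replicates came from separate animals, so each p-value measures the spread between these samples, which may be technical in part.

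The ovarian surface epithelium is a single layer of cells around the ovary, continuous with the mesothelium of the body cavity and derived from the coelomic epithelium. Its cells carry the intermediate filament proteins of simple epithelia, and also mesothelial surface proteins and the transcription factor Wt1. Few of these genes mark that layer alone: simple keratins and E-cadherin are also made by the lining of the oviduct, and Wt1 by granulosa cells, the source of the hedgehog ligands in the follicle. In whole-ovary RNA, fewer cells of a type and less RNA per cell cannot be told apart.

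Promoter sequences from RefSeq (GRCm38.p6) were found for 4 of the 9 members. They run from 250 bases before the annotated start to 50 after it. The keratin partners Krt8 and Krt18, neighbours on chromosome 15 with 0 protein-coding genes listed between them, are shown because both rose in dKO ovaries, and Upk3b because it did not pass the test. Capitals mark CACCTG, an E-box of the kind that the repressors Snai1 and Zeb1 are known to bind in the Cdh1 promoter, and TATAAA, the core of the TATA box. Krt7, which did not pass the test either, is not shown, and its matches are given below the sequences. Both strands were searched, and the motifs were chosen after the sequences had been seen.
Krt8, chr15:102004293-102004592, minus strand: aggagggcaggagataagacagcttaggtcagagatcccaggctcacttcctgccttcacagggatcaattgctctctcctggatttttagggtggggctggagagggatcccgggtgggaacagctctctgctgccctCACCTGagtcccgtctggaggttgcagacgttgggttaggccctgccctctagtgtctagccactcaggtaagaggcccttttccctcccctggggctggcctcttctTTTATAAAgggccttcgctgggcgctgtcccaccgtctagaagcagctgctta
Krt18, chr15:102027966-102028265, plus strand: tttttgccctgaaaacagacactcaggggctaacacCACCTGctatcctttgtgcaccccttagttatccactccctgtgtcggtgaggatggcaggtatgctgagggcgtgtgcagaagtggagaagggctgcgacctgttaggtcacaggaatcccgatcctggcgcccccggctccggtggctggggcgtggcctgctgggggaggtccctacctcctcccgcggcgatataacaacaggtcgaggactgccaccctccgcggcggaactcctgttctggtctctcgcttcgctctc
Upk3b, chr5:136038246-136038545, plus strand: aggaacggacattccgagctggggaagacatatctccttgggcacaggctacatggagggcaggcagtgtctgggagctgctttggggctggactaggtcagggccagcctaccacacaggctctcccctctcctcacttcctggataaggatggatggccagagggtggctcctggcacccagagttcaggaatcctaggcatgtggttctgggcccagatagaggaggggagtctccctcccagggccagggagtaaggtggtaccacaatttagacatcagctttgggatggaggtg
CACCTG occurred once each in the windows of Krt8 (bases 140 to 145), Krt18 (bases 37 to 42) and Krt7 (bases 207 to 212), and it occurred in 20.21% of 32851 promoter windows of the same length. TATAAA was found in Krt8 alone of the 4, on both strands with overlap (bases 248 to 255), against 13.62% of all windows. The motif GACCACCCA, the consensus of the hedgehog effectors of the GLI family, was in 0 of the 4 windows and in 0.2527% of all. GGGCGG, bound by Sp1, was found 4 times in Krt7 and in 35.66% of all windows. Such matches describe these letters and say nothing of binding.

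The arrays fell into 2 hybridization sets by the Affymetrix BioC spike-in controls, which the labels do not mention. The 3′ to 5′ signal ratio of BioC was 0.987 to 1.06 on dKO arrays and controls 1 to 4, and 0.685 to 0.781 on Dhh KO arrays, Ihh KO arrays and controls 5 to 8. Each mutant group was therefore set against the controls of its own set. Control 1 resembled control 5, 2 resembled 6, 3 resembled 7 and 4 resembled 8: across genes, deviations from the set's control mean correlated at 0.538 to 0.771 within these pairs and at -0.635 to 0.162 between other controls, and whether they are 8 separate RNAs is not stated in the labels. Dhh signal was 3.85 to 14.2 on dKO arrays against 606 to 1371 on controls 1 to 4, and Ihh 36.3 to 52.7 against 139 to 425. The array labelled Ihh KO 4 went against its label, with a Dhh signal of 2.96 and an Ihh signal of 108, against Dhh signals of 527 to 709 and Ihh signals of 12.5 to 43.5 on Ihh KO 1 to 3. Results on Ihh KO are therefore given with and without it. Ovgp1, the oviductal glycoprotein, on the 3 dKO arrays read 3729.7, 53.6 and 4679 in order of their number, with 26.0 to 409 on controls 1 to 4, so dKO 2 is given apart. The granulosa markers were present on every array, with a summed signal of 20058 to 31374 over 6 genes.

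All 9 members had a higher mean in dKO ovaries than in controls 1 to 4, and 4 of them rose: Cdh1, Krt18, Krt8 and Wt1. The test was limma on log2 values with Benjamini-Hochberg adjustment over all genes, called at an adjusted p under 0.05, and it called 3.02% of the 12379 genes, 1.57% as higher and 1.45% as lower. The median change was 0.98 on the log2 scale over the 9 members and 0.02 over all genes. The values are MAS5 signals, linear probe set intensities scaled to the same trimmed mean on every array, and log2 changes were taken after adding 7.02, which understates the change of dim genes.

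Cdh1 encodes E-cadherin, the calcium-dependent adhesion protein of epithelial junctions. Its signal was 787, 468 and 1184 on dKO 1, 2 and 3, against 218, 160.1, 174 and 276 on controls 1 to 4. Each dKO array lay above every control, and dKO 2 was the lowest of the 3. The change was 1.87 ± 0.26 (SE, log2; 3.65-fold; limma adjusted p = 0.0012). Without dKO 2 it was 2.21 (limma adjusted p = 0.00033). On dKO 2 alone it was 1.18 (limma adjusted p = 0.10), where the lone array is assumed to vary like the other groups.

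Krt8 and Krt18 encode the type II and type I keratins that pair into the filaments of simple epithelia. Krt8 read 1513, 1558 and 2202 on dKO 1, 2 and 3, against 1056, 738, 699 and 964 on controls 1 to 4. Krt18 read 1619, 1495 and 2649 on dKO arrays, against 870.0, 733, 768 and 507 on the controls. For both, all dKO arrays were above all controls and dKO 3 was highest. Krt8 changed by 1.02 ± 0.18 (SE, log2; limma adjusted p = 0.0042) and Krt18 by 1.39 ± 0.21 (SE, log2; limma adjusted p = 0.0018). Both calls held without dKO 2, at 1.09 and 1.54, in a fit that called 1.84% of all genes. The other 2 probe sets of Krt8, which contain probes that can match related transcripts, gave changes of 1.02 and 1.41 and were called as well when probe sets were tested singly (2.15% of 23341 probe sets were called).

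Wt1, the zinc finger transcription factor of the coelomic epithelium and its derivatives, gave 1942, 2313 and 2078 on dKO arrays, against 1388, 1124, 1033 and 1432 on controls 1 to 4. The groups did not overlap, and here dKO 2 was the highest of the 3. The means were 2111 ± 188 (SD, n = 3) in dKO ovaries and 1244 ± 196 (SD, n = 4) in controls, a log2 change of 0.77 ± 0.15 (SE; limma adjusted p = 0.0077). Without dKO 2 the change was 0.70 (limma adjusted p = 0.043). These 4 calls were kept in each of 7 fits that left out 1 array of the comparison, but no member was called on dKO 2 alone, where the changes of Krt18, Krt8 and Wt1 were 1.07, 0.87 and 0.90 (limma adjusted p = 0.099, 0.15 and 0.080; unadjusted p under 0.05 for 8 members and for 1356 of the 12379 genes). That fit called 0.614% of all genes. In a fit of the 7 first-set arrays only, with 0.638% of all genes called, Krt18 and Cdh1 stayed called and Krt8 and Wt1 had an adjusted p of 0.052 each.

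**Figure D1:**
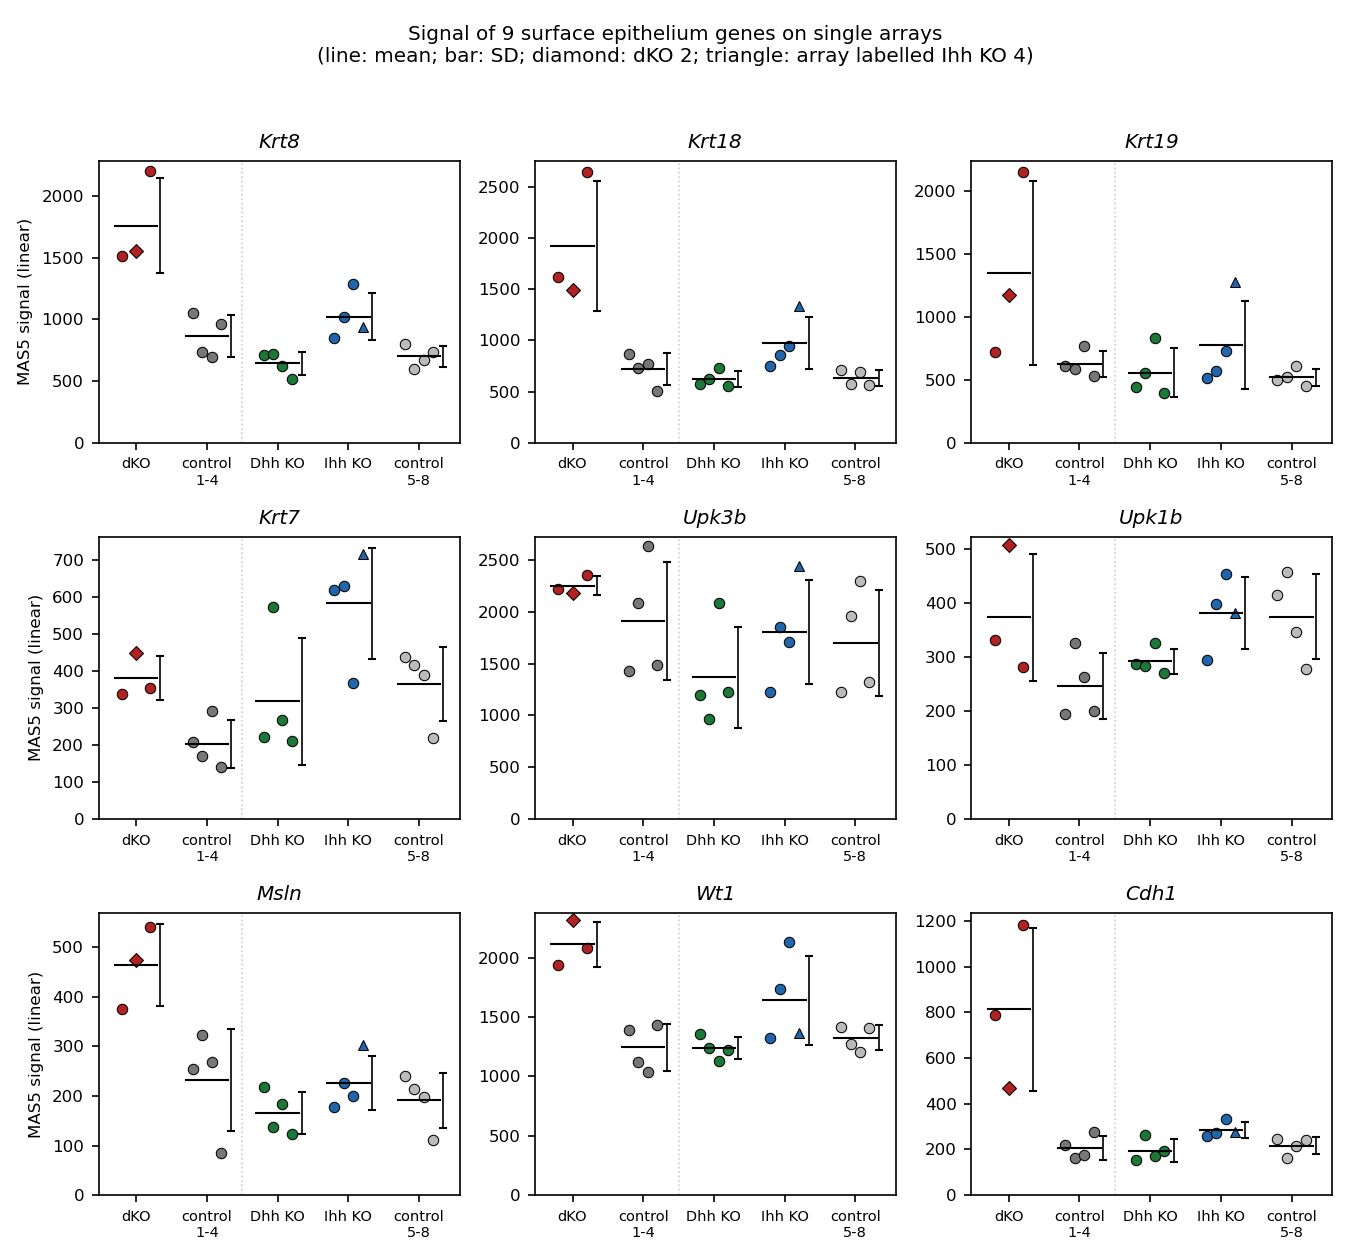
MAS5 signal (linear, y axis from 0) of each member on each array, with group means (lines) and SD (bars), 3 dKO arrays and 4 arrays in each other group. For Cdh1, Krt8, Krt18, Wt1, Krt7 and Msln the 3 dKO points, dKO 2 drawn as a diamond, lie above all controls 1 to 4.

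The remaining keratins did not pass the test in dKO ovaries. Krt19, a type I keratin of simple epithelia, read 722, 1174 and 2147 on dKO 1, 2 and 3, against 609.9, 585, 767 and 530.1 on controls 1 to 4. Here dKO 3 was far above every other array, and dKO 1 lay inside the control range. The change was 0.98 ± 0.33 (SE, log2; limma adjusted p = 0.13). It was called without dKO 1, at 1.35 (limma adjusted p = 0.030), and was 0.57 without dKO 3 (limma adjusted p = 0.48). Krt7, a type II keratin, read 339, 449 and 353 on dKO arrays, against 208, 170.3, 292 and 139.8 on the controls. The groups did not overlap, but the change of 0.93 ± 0.33 (SE, log2) had a limma adjusted p of 0.15.

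The mesothelial surface proteins were less uniform. Msln encodes mesothelin, a glycolipid-anchored protein of mesothelial cells, and read 376, 475 and 540.5 on dKO 1, 2 and 3, against 254, 324, 269 and 84.7 on controls 1 to 4. All dKO arrays were above all controls, and control 4 was far below the others. The change of 1.11 ± 0.36 (SE, log2) did not pass (limma adjusted p = 0.11), and it was 0.69 without control 4. Upk1b, a tetraspanin of the uroplakin family, read 332, 507 and 282 on dKO arrays, against 195, 326, 264 and 201 on the controls (the brightest of its 4 probe sets). That probe set, like the dimmer ones of Krt8, contains probes that can match related transcripts. Here dKO 2 was clearly the highest and dKO 3 lay within the controls. The change was 0.57 ± 0.22 (SE, log2; limma adjusted p = 0.18), 1.05 on dKO 2 alone and 0.34 without dKO 2. The 3 dimmer probe sets of Upk1b gave 0.25, 0.45 and 0.58, each also highest on dKO 2.

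Upk3b, a uroplakin made in mesothelium outside the bladder, stood apart from the other members. It read 2219.9, 2182 and 2358 on dKO arrays, against 1425, 2083, 2637 and 1489.7 on controls 1 to 4. The 3 dKO values were close together and lay inside the range of the controls. The change was 0.28 ± 0.28 (SE, log2; 95% interval -0.30 to 0.86; limma adjusted p = 0.68), and the second probe set gave 0.35. A change of up to 0.86 is thus compatible with these arrays.

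All 3 dKO arrays lay above all 4 controls of their set for 6 of 9 members, Krt8, Krt18, Krt7, Msln, Wt1 and Cdh1, and 7.08% of all genes tested did so. On dKO 2, the dKO array with low Ovgp1, 8 of 9 members (all but Upk3b) were above every control, beside 26.0% of all genes. The mean of the 9 members exceeded that of the controls by 0.79, 0.95 and 1.23 (log2) on dKO 1, 2 and 3. The controls themselves ranged from -0.24 to 0.14. The summed signal of 8 oviduct genes (Ovgp1, Pax8, Wfdc2, Cldn3, Cldn4, Sox17, Plet1 and Msx2) reached 6989.5, 739 and 11368 on dKO 1, 2 and 3, with 555 to 1130.4 on controls 1 to 4. The sum includes Ovgp1, by which dKO 2 was set apart. Without Ovgp1 it was 3260, 685 and 6688 on dKO 1, 2 and 3, against 722, 534, 582 and 517 on controls 1 to 4, so that dKO 2 was above 3 of the 4 controls and below control 1. Of these 7 genes, Wfdc2 (139 on dKO 2, against 58.9 to 82.5 on the controls), Cldn3 (107 against 34.2 to 72.0) and Cldn4 (18.5 against 2.72 to 12.5) were above every control on dKO 2, and Sox17 was below every control (176 against 297 to 359). The part of oviduct RNA in the members' values on dKO 2 was not tested. On dKO 1 and dKO 3 the sum moved with Cdh1, which read 787 and 1184 there and 468 on dKO 2, and its part in that difference was not tested. The same sum was 933 to 1301 on Ihh KO arrays and 694 to 987 on Dhh KO arrays, against 751 to 1797 on controls 5 to 8.

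**Figure D2:**
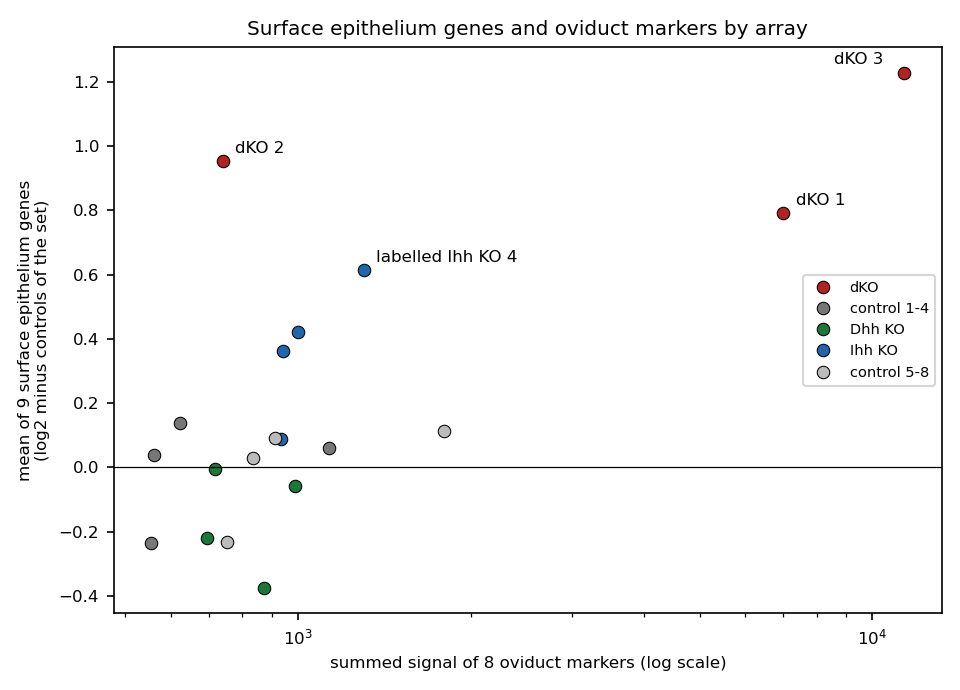
Each point is an array: summed MAS5 signal of 8 oviduct markers (x, log scale) against the mean of the 9 members as log2 value minus the mean of the controls of the array's set (y). dKO 2 lies at 0.95 on the y axis with an oviduct sum of 739, above 3 of controls 1 to 4 and below control 1, while dKO 1 and dKO 3 lie far to the right.

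The other gene lists held 54 tested genes, of which limma called 10 in dKO ovaries (18.5%, against 3.02% of all genes). Of 12 other surface epithelium and mesothelium genes tested, Ezr (ezrin, the linker of membrane and actin) rose by 0.69 (limma adjusted p = 0.0058) and Aldh1a1 (a retinal dehydrogenase) fell by 0.78 (limma adjusted p = 0.036), and the other 10 did not pass. Their median change was 0.44, with 9 of 12 higher, and 9 of 12 had an unadjusted p under 0.05, against 16.1% of all genes. Of those 10, Cd9, Bnc1 and Cldn15 had changes of 0.45, 0.65 and 0.64, with adjusted p-values of 0.11, 0.18 and 0.19. Aldh1a1, the brightest of that list, read 6787, 5289 and 5626 on dKO arrays, against 10695, 10296, 9889 and 9518 on the controls. It lost its call without dKO 2, at -0.71 (limma adjusted p = 0.14).

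Epithelial junction genes did not move as a block. Of 12 tested, Epcam, an adhesion protein of epithelial cells, rose by 1.31 (limma adjusted p = 0.0095), while Cldn1, a tight junction claudin, fell by 1.98 (limma adjusted p = 0.017). Epcam read 1029, 1111 and 1789 on dKO 1, 2 and 3, against 477, 449, 772 and 402 on controls 1 to 4. Cldn1 read 46.5, 29.7 and 110.4 on dKO arrays, against 151, 234, 299.7 and 287 on the controls. Epcam thus lay above and Cldn1 below all controls on each dKO array. Cldn1 lost its call without dKO 2, at -1.61 (limma adjusted p = 0.11). Ocln and Jup had changes of 1.06 and 0.49 and did not pass, and the catenin Ctnnb1, which binds E-cadherin, had a change of -0.24 (limma adjusted p = 0.18). The median over the list was 0.24.

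Of 5 transcription factors of the coelomic epithelium tested, Emx2 rose by 0.73 (limma adjusted p = 0.029) and Tcf21 fell by 0.71 (limma adjusted p = 0.015). Gata4, Lhx9 and Nr5a1 did not pass, and the list's median was -0.15. Emx2 was not called without dKO 2, at 0.68 (limma adjusted p = 0.11). Of 6 granulosa genes 0 were called by limma, with 0 at an unadjusted p under 0.05, and 5 had a higher mean in dKO ovaries. The part of granulosa content in the Wt1 values was not tested. Acta2, smooth muscle actin, fell by 0.90 (limma adjusted p = 0.0034), the only call among 8 stromal genes. Of these 8, 7 had a lower mean in dKO ovaries and 4 an unadjusted p under 0.05, with a median change of -0.38. Pdgfra, a growth factor receptor of mesenchymal cells, had a change of -0.61 (limma adjusted p = 0.12) and the collagen gene Col3a1 of -0.45 (limma adjusted p = 0.26). Wfdc2, Plet1 and Cldn3 were the 3 of 5 oviduct genes that rose, by 2.87, 3.60 and 1.82 (limma adjusted p = 0.0067, 0.0085 and 0.014). On dKO 2 alone those changes were 0.94, 1.28 and 0.93 (limma adjusted p = 0.49, 0.56 and 0.47). Of 3 cilia genes and 2 blood cell genes tested, limma called 0, with 2 and 1 at an unadjusted p under 0.05. Krt20, the only other keratin above the filter, had a change of 0.96 (limma adjusted p = 0.31), and 0 of 3 other uroplakins were above it. In the fit of first-set arrays only, Aldh1a1 alone kept its call among these 10 genes of the other lists. The 3′ to 5′ signal ratio of Gapdh, a sign of RNA quality, was 1.72 ± 0.056 on dKO arrays (SD, n = 3) and 1.75 ± 0.051 on controls 1 to 4 (SD, n = 4).

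In ovaries lacking Dhh alone none of the 9 members passed the limma test, and 0 of them had an unadjusted p under 0.05. Of all genes, 0 were called (0%), with 1252 at an unadjusted p under 0.05. The members' median change was -0.16, with 8 of 9 lower, and -0.03 over all genes. Krt8 read 711, 717, 623 and 520.4 on Dhh KO 1 to 4, against 799, 601, 674 and 735 on controls 5 to 8. Krt18 read 577, 624, 730.4 and 556 on Dhh KO arrays, against 711, 575, 689 and 563 on the controls. Cdh1 read 152, 264, 169 and 194 on Dhh KO arrays, against 244, 164, 216 and 239 on the controls. For each of the 3 genes the groups overlapped. The changes were -0.13 for Krt8 (95% interval -0.48 to 0.22), -0.03 for Krt18 (-0.44 to 0.39) and -0.16 for Cdh1 (-0.67 to 0.35). All 4 Dhh KO arrays were above all 4 controls for 0 of 9 members, beside 2.19% of all genes.

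The remaining members also overlapped between Dhh KO ovaries and controls. Wt1 ranged over 1130.3 to 1359.7 on Dhh KO arrays, against 1201 to 1415 on controls 5 to 8, with a change of -0.10 (95% interval -0.39 to 0.19). Krt7 was high on Dhh KO 2 alone, with 573, while the other 3 Dhh KO arrays read 211 to 267 and controls 5 to 8 read 218 to 438. Krt19 was highest on Dhh KO 3, at 830.3, and Upk3b was also highest there, at 2084 against 966 to 1223 on the other 3 Dhh KO arrays. Upk1b and Upk3b had changes of -0.33 each, Krt7 of -0.27, Msln of -0.18 and Krt19 of 0.05, with adjusted p-values of 0.60 to 0.97 over the 9 members. The 3′ to 5′ ratio of Gapdh was 2.52 ± 0.31 in Dhh KO ovaries and 1.94 ± 0.05 in controls 5 to 8 (SD, n = 4 each), and the part of RNA quality in these values was not tested.

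In Ihh KO ovaries, all 4 arrays as labelled, all 9 members had a higher mean than controls 5 to 8, and none was called by limma (3 had an unadjusted p under 0.05: Krt8, Krt18 and Krt7). Of all genes, 0.0162% were called, with 1728 at an unadjusted p under 0.05. The median change was 0.40 over the members and -0.02 over all genes. Krt8 read 849, 1019, 1285 and 935 on the arrays labelled Ihh KO 1 to 4, against 799, 601, 674 and 735 on controls 5 to 8. Krt18 read 755, 858, 949.7 and 1333 on Ihh KO arrays, against 711, 575, 689 and 563 on the controls. Cdh1 read 257, 271, 335 and 276 on Ihh KO arrays, against 244, 164, 216 and 239 on the controls. For these 3 genes, by the brightest probe set, every Ihh KO array lay above every control, as it did for 2.29% of all genes. Krt8 had a change of 0.53 (95% interval 0.18 to 0.88; limma adjusted p = 0.19), Krt18 of 0.59 (0.17 to 1.00; limma adjusted p = 0.21) and Cdh1 of 0.40 (-0.11 to 0.91; limma adjusted p = 0.47). The dimmer probe sets of Krt8 overlapped with the controls. Tested singly, they gave changes of 0.08 and 0.55 (limma adjusted p = 0.84 and 0.33).

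The other members of the Ihh KO comparison overlapped with the controls. Upk1b had a change of 0.035 by its brightest probe set, and of 0.35, 0.53 and 0.46 by the dimmer ones tested singly. Krt7 read 619, 630.1, 368 and 715 on Ihh KO 1 to 4, against 438, 416, 388 and 218 on controls 5 to 8, a change of 0.67 (limma adjusted p = 0.34). Wt1 read 1326, 1737, 2129 and 1366 on Ihh KO arrays, against 1415, 1276, 1201 and 1408 on the controls, and only Ihh KO 2 and 3 were above all of them. Krt19, at 1278, Upk3b, at 2447, and Msln, at 303, were highest on the array labelled Ihh KO 4, which carries the signal of Dhh loss. Without it the changes of these 3 genes were 0.21, -0.06 and 0.12, against 0.48, 0.09 and 0.26 with it. Krt18, at 1333, and Krt7, at 715, were also highest on that array. Without it their changes were 0.43 and 0.56, against 0.59 and 0.67 with it, and Krt7 then had an unadjusted limma p of 0.11. On Ihh KO 1 to 3 alone, Krt8 had a change of 0.56 (limma adjusted p = 0.15), Krt18 of 0.43 (limma adjusted p = 0.29) and Wt1 of 0.36 (limma adjusted p = 0.23). On those 3 arrays the same 3 genes, Krt8 (by its brightest probe set), Krt18 and Cdh1, lay above every control, beside 5.10% of all genes. In that fit 48 genes (0.388%) and 0 members were called. The 3′ to 5′ ratio of Gapdh was 2.07 ± 0.21 in Ihh KO ovaries and 1.94 ± 0.05 in controls 5 to 8 (SD, n = 4 each). Among the Ihh KO arrays it was highest on Ihh KO 3, at 2.37. The part of RNA quality in the Ihh KO values was not tested.

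**Figure D3:**
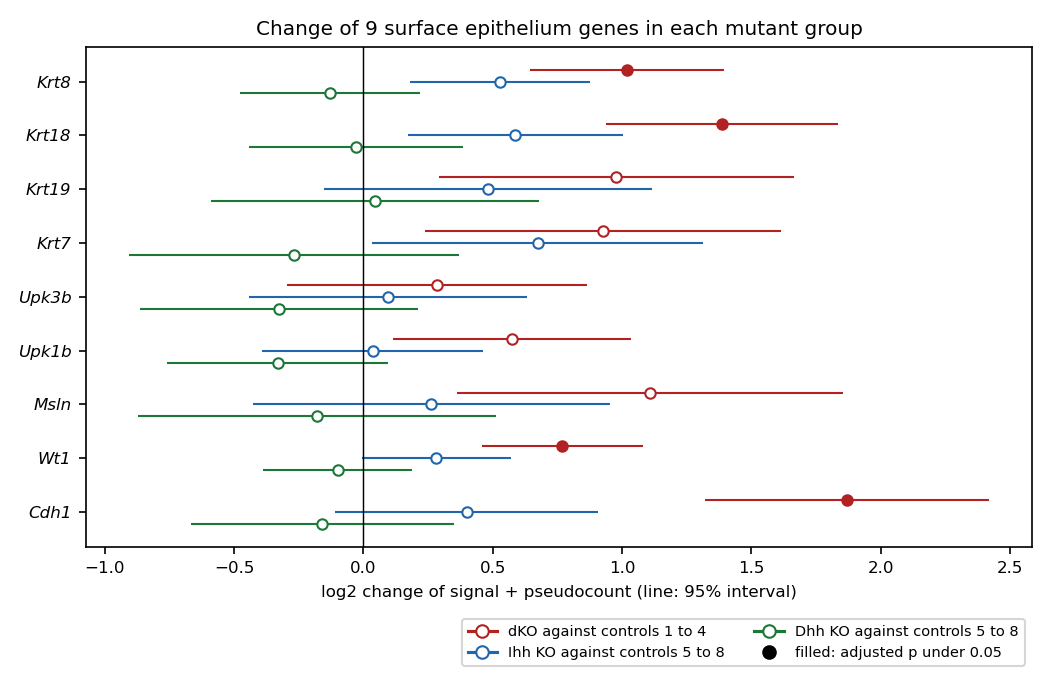
Log2 change of each member (points) with its 95% interval (lines) in dKO ovaries against controls 1 to 4, and in Ihh KO and Dhh KO ovaries against controls 5 to 8. Filled points have a limma adjusted p under 0.05: Krt8, Krt18, Wt1 and Cdh1 in dKO ovaries.

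The difference between the dKO effect and the Dhh KO effect, each taken within its own set, was positive for all 9 members and called for 3 by limma, beside 0.606% of all genes. It was 2.03 ± 0.36 for Cdh1 (SE, log2; limma adjusted p = 0.014), 1.42 ± 0.29 for Krt18 (limma adjusted p = 0.035) and 1.15 ± 0.24 for Krt8 (limma adjusted p = 0.040). Wt1 had 0.87 ± 0.20 and an adjusted p of 0.056. Tested singly, the dimmer probe sets of Krt8 gave 1.22 and 1.46 (limma adjusted p = 0.012 and 0.077). Of 23341 probe sets, 0.398% were called. The mean 3′ to 5′ ratio of Gapdh was 2.52 in Dhh KO ovaries and 1.94 in their controls, against 1.72 in dKO ovaries and 1.75 in theirs. The part of RNA quality in these differences was not tested. Leaving out 1 array at a time, Cdh1 was called in 15 of 15 fits, Krt18 in 6 and Krt8 in 4. Krt18 lost its call without dKO 3, control 2, 3, 5, 6 or 7, or Dhh KO 1, 2 or 4, and Krt8 without dKO 2 or 3, control 2, 3, 5, 7 or 8, or any of the 4 Dhh KO arrays. On dKO 2 alone 0 members were called (0.242% of all genes), and after quantile normalization 0 were called.

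The difference between the dKO effect and the Ihh KO effect was positive for all 9 members by the brightest probe set, and limma called none, beside 0.396% of all genes. Tested singly, the dimmer probe sets of Krt8 gave 0.94 and 0.86 (limma adjusted p = 0.045 and 0.25, with 0.373% of 23341 probe sets called). Those of Upk1b gave -0.10, -0.08 and 0.12, and the dimmer one of Upk3b gave 0.24. An unadjusted p under 0.05 was reached by 3 members, Cdh1, Krt18 and Wt1, and by 17.4% of all genes. The largest difference was that of Cdh1, at 1.47 ± 0.36 (SE, log2; 95% interval 0.72 to 2.22; limma adjusted p = 0.073). It was called without dKO 2, at 1.81 (limma adjusted p = 0.029, 0.242% of all genes called), and without control 4. Krt18 differed by 0.80 (0.19 to 1.41) and Wt1 by 0.49 (0.06 to 0.91), and both missed the threshold, with adjusted p-values of 0.18 and 0.23. For Krt7 the difference was 0.25 (-0.69 to 1.19), an interval that holds differences in either direction. Without the array labelled Ihh KO 4, 0 members were called (0.275% of all genes were) and 2 members, Cdh1 and Krt18, had an unadjusted p under 0.05, against 17.5% of all genes. The differences then ran from 0.35 for Upk3b to 1.46 for Cdh1 (limma adjusted p = 0.091), and Krt19 had 0.77. With that array these 3 genes had 0.19, 1.47 and 0.50.

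Between the single knockouts, in the same hybridization set, the 9 members had higher means in Ihh KO than in Dhh KO ovaries, by 0.37 to 0.94 on the log2 scale, and none was called by limma. Of all genes 0% were called there, with 5 members and 11.6% of all genes at an unadjusted p under 0.05. Krt7 had the largest value and Krt8 the smallest adjusted p, at 0.24. Without the array labelled Ihh KO 4 the range was 0.17 to 0.83, with Krt19 at 0.17, Upk3b at 0.26 and Msln at 0.30. Again 0 members were called, beside 26 of all genes (0.210%). The 3′ to 5′ ratio of Gapdh was 2.07 ± 0.21 in Ihh KO and 2.52 ± 0.31 in Dhh KO ovaries (SD, n = 4 each). The part of RNA quality in the comparison of the single knockouts was not tested.

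**Figure D4:**
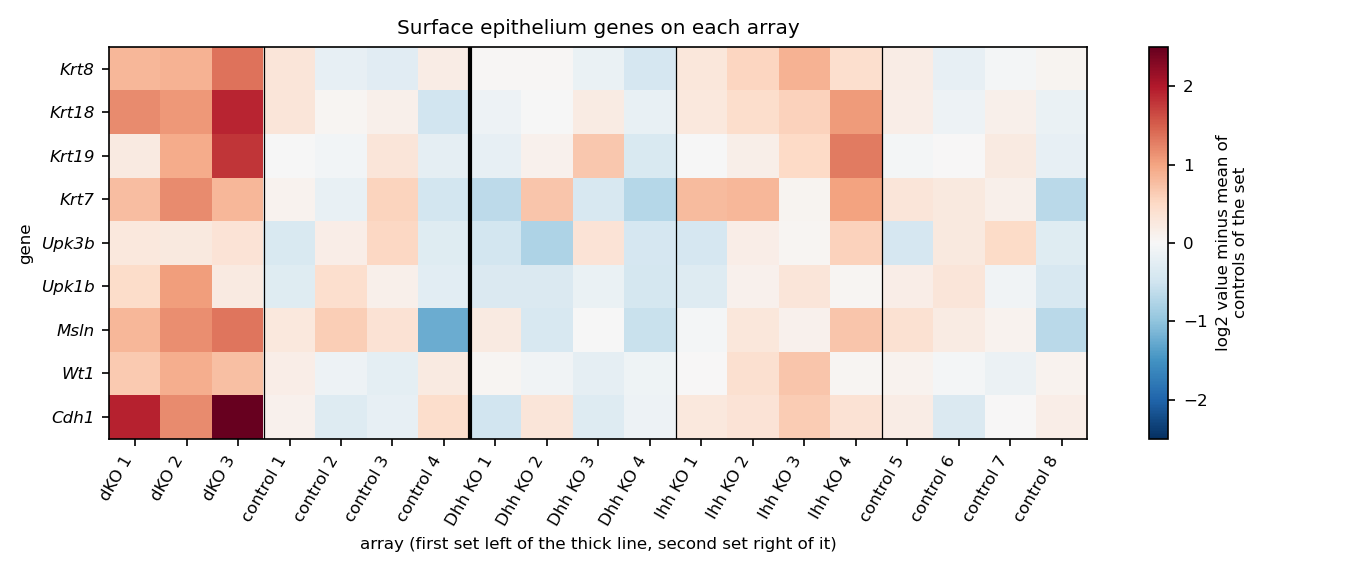
Log2 value of each member (rows) on each of the 19 arrays (columns), minus the mean of the controls of the array's hybridization set; red is higher and blue lower. The dKO columns are red for all 9 genes, faintly for Upk3b, and Cdh1 on dKO 3 is the strongest cell at 2.51.

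The members did not vary as a single block over arrays. Over the 19 arrays, which share their groups and hybridization sets, Krt8 followed Wt1 (Pearson r = 0.92) and Cdh1 (r = 0.89), and Krt18 followed Krt19 (r = 0.86). Krt18 also followed Krt8 (r = 0.85) and Cdh1 (r = 0.84). Upk3b followed Krt19 (r = 0.63) and hardly Wt1 (r = 0.15). In the 12 arrays of the second set, which hold no dKO array, Krt8 and Wt1 still had r = 0.87 and Upk3b and Wt1 r = 0.05. On the control arrays, Wt1 and Krt8 also differed in pattern from Upk3b. Among controls 1 to 4 Wt1 and Krt8 were higher on controls 1 and 4 than on 2 and 3, as was the granulosa gene Fshr, at 1510.1 and 1167 against 563 and 788. Upk3b ran the other way, with 2083 and 2637 on controls 2 and 3 against 1425 and 1489.7 on 1 and 4, and so did the stromal gene Lum, with 4362 and 4021 against 2197 and 2291. Controls 5 to 8 showed both patterns in the same order, and they are the arrays that resembled controls 1 to 4 pair by pair. Krt18 read 870.0, 733, 768 and 507 on controls 1 to 4, and Krt19 read 609.9, 585, 767 and 530.1. Both followed neither pattern there. On controls 5 to 8 Krt19 read 499, 523, 606 and 448, in the pattern of Upk3b. These values are descriptions, and the part of follicle or stroma content in them was not tested.

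**Figure D5:**
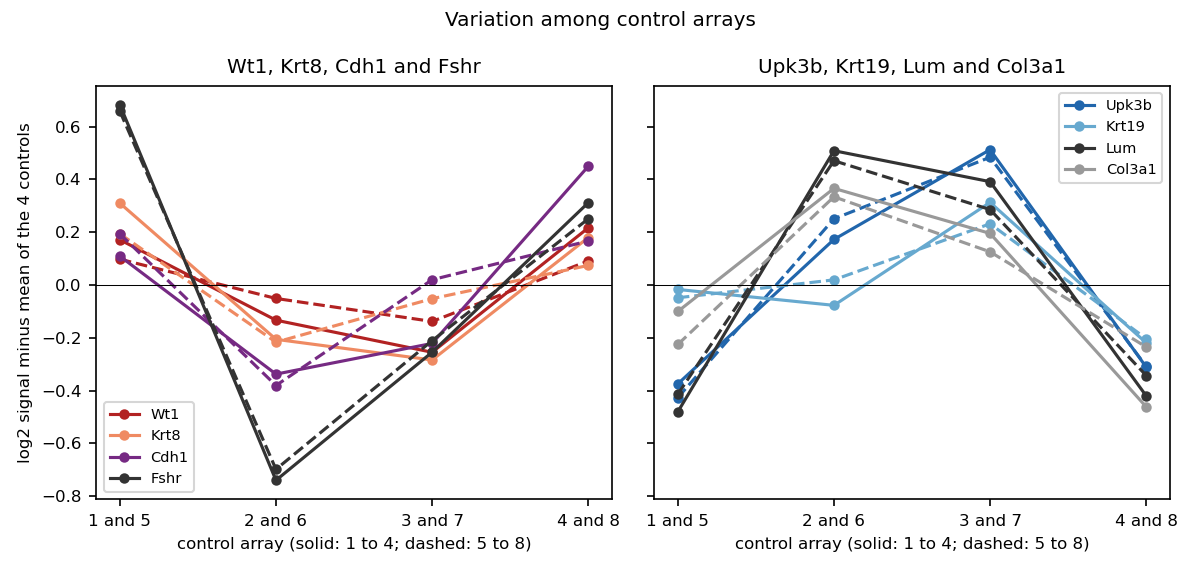
Log2 signal minus the mean of the 4 controls of the set (y) on controls 1 to 4 (solid) and 5 to 8 (dashed), drawn at matching positions on the x axis. Wt1, Krt8, Cdh1 and the granulosa gene Fshr (left) are high at the outer positions. Upk3b and the stromal genes Lum and Col3a1 (right) are high at the inner ones. Krt19 (right) follows neither pattern on controls 1 to 4.

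The genes outside the members whose values over the 19 arrays were most like the members' mean were Epcam (r = 0.94), Smim22 (0.88), Ezr (0.88), Arhgef4 (0.88), Gata6 (0.87), Wfdc17 (0.87), Erbb3 (0.86) and Tbc1d9 (0.85). Without dKO 2 and dKO 3, the arrays farthest from the median, the r of these 8 genes ranged from 0.68 (Erbb3) to 0.93 (Smim22). In the 12 arrays of the second set, which hold no dKO array, it ranged from 0.52 (Erbb3) to 0.91 (Smim22). Smim22 read 1047, 519 and 2284 on dKO 1, 2 and 3, against 445, 378, 389 and 323 on controls 1 to 4, and dKO 2 was the lowest of the dKO arrays. Gata6, a GATA family transcription factor, read 2533, 2448 and 2585 on dKO arrays, against 1510.05, 1485, 1409 and 1448 on the controls, and was almost level over the 3 dKO arrays.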

How the data were processed

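The authors deposited 1 linear intensity per probe set and array, named as MAS5 output in the submitters' processing notes. Per the labels' protocols, small amounts of total RNA were amplified (WT-Ovation Pico) before biotin labelling. The 2% trimmed mean was 500 on all 19 arrays, so no second normalization was applied. The number of arrays limits the precision. Gene names came from the platform annotation supplied with the values: 34945 probe sets had 1 gene, 932 had several and were not used. The brightest probe set stood for a gene. A value of 7.02 (the 10th percentile) was added before log2, and genes under the 40th percentile of mean log2 (signal 69.4) were dropped. All 19 arrays were fitted as 5 means with limma 3.58.1 (lmFit, eBayes with trend, two-sided) in R 4.3.3, for 6 comparisons, with Benjamini-Hochberg adjustment over 12379 genes. The fit was tested on simulated data. The planned permutation test for members below the filter was not needed. Sequences and figures used Python 3.11.15 with pandas 2.3.3, numpy 2.4.6 and matplotlib 3.10.9.

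The members and lists were chosen with earlier results of these data known. Named genes were all members, the called genes and up to 3 more by p of each other list, the check genes Dhh, Ihh and Ovgp1, and the 8 genes outside the members with the highest r to their mean; Fshr, Lum, Col3a1, Cldn4, Sox17 and Upk1a were named after their values were seen. Replicate numbers were not taken to pair the samples. Same-numbered dKO and control arrays correlated at 0.158, 0.274 and 0.0743. Differently numbered arrays were not compared in this way, so these values cannot show whether the numbers pair the samples.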

Additional observations from a re-analysis of the deposited data

Results flagged for a closer look

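For 3 members the dKO effect differed from the Dhh KO effect in a test of the difference itself (limma, Benjamini-Hochberg over all genes). The difference was 2.03 on the log2 scale for Cdh1, 1.42 for Krt18 and 1.15 for Krt8, with higher values in dKO ovaries. In all 3 genes each of the 3 dKO arrays lay above its controls. The part of RNA quality on Dhh KO arrays, described above, was not tested. Over 36 groups of 4 arrays (9 members in each of 4 groups), on log2 values, 0 held an array set apart from the rest by Dixon's criterion. Chance meets that criterion in about 1 of 20 groups. Krt7 on Dhh KO 2, at a linear signal of 573 against 211 to 267 on the other Dhh KO arrays, was thus not flagged on the log2 scale.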

How the results depend on the processing

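The dKO comparison called 4 members, and 0 to 6 over 17 alternatives: 2 with only the 7 arrays of the set, 0 on dKO 2 alone (without both dKO 1 and dKO 3, an alternative chosen after seeing the data), 6 with all 8 controls as a group and 4 to 5 leaving out 1 array at a time. The number of all genes called was 374, and 128 to 503 over those leave-outs, 79 with only the arrays of the set and 594 with all 8 controls. The dKO effect minus the Dhh KO effect gave 3 members, against 0 after quantile normalization, 0 on dKO 2 alone, 5 with a correlation between matched controls (0.65; 672 of all genes called, 5.43%), 7 with all 8 controls (3220 genes, 26.0%) and 1 to 4 leaving out 1 array. The dKO effect minus the Ihh KO effect gave 0, against 1 with matched controls (697 genes, 5.63%), 4 with all 8 controls (2562 genes, 20.7%) and 0 to 1 leaving out 1 array. With all arrays and no such change the 2 differences called 75 and 49 genes, so both fits raised the calls over all genes as well. The cause was not tested, beyond the smaller number of arrays in the fits with fewer. The fit with all 8 controls ignores the hybridization sets. The controls cancel out of the 2 differences in that fit. Its values for them thus set dKO arrays directly against single-knockout arrays of the other set, where genotype and set cannot be told apart.

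Changes that turned sign were all far from the threshold: in Dhh KO ovaries Krt18 was 0.00039 after quantile normalization and -0.11 to 0.028 leaving out 1 array, Krt19 was -0.082 with all 8 controls and -0.17 to 0.19 leaving out 1 array, and Krt7 was 0.15 with all 8 controls. In Ihh KO ovaries Upk1b, by its brightest probe set, ranged over -0.10 to 0.15 and Upk3b over -0.065 to 0.27 leaving out 1 array. The dimmer probe sets of Upk1b, tested singly, gave 0.35, 0.53 and 0.46 there (limma adjusted p = 0.78, 0.43 and 0.34).

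With the replicate number as a block, the dKO comparison called 4 members and the Ihh KO to Dhh KO comparison 0, so the block changed no call. No paired analysis was possible for the single knockouts because they share no number with controls 5 to 8. The restriction to the arrays of a set has no meaning for the differences of effects, and Msln lay under the stricter filter at the 60th percentile. MAS5 signals of dim probe sets, such as Msln, rest on little signal over background.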

Other observations

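Upk1a, a uroplakin outside the members that lay below the intensity filter and was not tested, read 398, 15.7 and 180.1 on dKO 1, 2 and 3, against 31.5, 5.10, 23.1 and 20.8 on controls 1 to 4. It was high on the arrays with high Ovgp1. The dimmest probe set of Upk1b read 73.6, 223 and 73.3 on dKO 1, 2 and 3, against 50.5 to 125 on controls 1 to 4, and so was high on dKO 2. On Ihh KO 2 and 3 it read 205 and 327, against 86.1 to 179.7 on controls 5 to 8.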
